A study of Homo sapiens with 6 samples.

Results

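The genes described here are 10 chains of interleukin receptors that B cells carry: IL21R, IL7R, IL4R, IL2RG, IL2RB, IL10RA, IL10RB, IL13RA1, IL6R and IL27RA. They were chosen by symbol and found by their numeric gene identifiers among the 23459 genes of the count table, and all 10 had a row. The libraries came from Raji, an established cell line grown from a Burkitt's lymphoma, a germinal centre B cell tumour, and carrying Epstein-Barr virus. The cells carried OBF1sh1, a short hairpin RNA (shRNA) that targets OBF1 and was delivered by lentivirus, or the non-target shRNA SHC002 as the control, with 3 libraries per group. OBF1 is a coactivator that B cells use with the Oct factors, and its gene is POU2AF1. Cells of both groups had been exposed to lentivirus for 5 days and selected with 3 μg/ml puromycin for 7 days, and no uninfected cells and no other hairpin against OBF1 were analysed here. The selected cells are a pool of stable integrants, per the labels' protocols, and the labels leave unsaid whether each library had its own culture. P-values thus measure only the spread between these libraries, and that spread may be technical.

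The receptors that these chains form have no enzyme of their own and signal through JAK kinases bound to their tails, which phosphorylate STAT factors. IL2RG, the common gamma chain, is shared: it joins IL4R to bind interleukin-4, IL7R to bind interleukin-7, IL21R to bind interleukin-21, and IL2RB to bind interleukin-2 or interleukin-15. The chain that pairs with it is here called private, since it sets which ligand is bound. IL2RB is counted among these, although it serves both interleukin-2 and interleukin-15. IL4R can instead pair with IL13RA1, which also binds interleukin-13. IL10RA, the ligand-binding chain for interleukin-10, pairs with IL10RB, which several other cytokine receptors share. IL6R and IL27RA each pair with the shared chain gp130, encoded by IL6ST. In germinal centres, interleukin-4 and interleukin-21 are the best known helper signals that follicular T cells give to B cells, and IL7R is known best from early B cell precursors and T cells.

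OBF1 is known to bind DNA with Oct factors at the octamer ATGCAAAT, so the sequences upstream of the receptor genes were searched for it. RefSeq promoters of build GRCh38.p14 were given for 9 of the 10 genes, all but IL2RB, and the 250 bases before each annotated start were read on both strands. The octamer was found upstream of 1 of the 9, IL4R, at 115 to 108 bases before the start; among all 35116 such windows of the genome 1.63% hold it. The consensus of NF-κB was found upstream of 2, IL4R and IL27RA, against 5.21% of all windows. The core of Ets factor sites, GGAA, was found upstream of 8 of the 9, against 92.7% of all windows. The STAT motif TTCNNNGAA was found upstream of 0 of the 9, against 6.57%. The upstream sequences of the common gamma chain and of the 3 private partners with a window are shown because the results turn on how these 4 genes moved relative to each other. Capitals mark the octamer, the NF-κB consensus and GGAA or its reverse complement; in IL4R the GGAA at 50 bases before the start lies within an NF-κB match. The windows are chrX:71111578-71111827 on the minus strand for IL2RG, and on the plus strand chr16:27313724-27313973 for IL4R, chr16:27427021-27427270 for IL21R and chr5:35856641-35856890 for IL7R.
IL2RG: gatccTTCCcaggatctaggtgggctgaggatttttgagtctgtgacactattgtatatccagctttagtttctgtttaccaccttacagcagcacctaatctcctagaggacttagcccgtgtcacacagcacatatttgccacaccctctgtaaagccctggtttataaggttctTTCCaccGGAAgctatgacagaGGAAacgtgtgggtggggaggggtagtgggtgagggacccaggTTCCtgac
IL4R: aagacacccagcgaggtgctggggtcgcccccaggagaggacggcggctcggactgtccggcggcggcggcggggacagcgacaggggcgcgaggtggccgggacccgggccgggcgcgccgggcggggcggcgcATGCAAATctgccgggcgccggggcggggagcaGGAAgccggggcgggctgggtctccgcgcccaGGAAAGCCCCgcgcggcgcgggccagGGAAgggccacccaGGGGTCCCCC
IL21R: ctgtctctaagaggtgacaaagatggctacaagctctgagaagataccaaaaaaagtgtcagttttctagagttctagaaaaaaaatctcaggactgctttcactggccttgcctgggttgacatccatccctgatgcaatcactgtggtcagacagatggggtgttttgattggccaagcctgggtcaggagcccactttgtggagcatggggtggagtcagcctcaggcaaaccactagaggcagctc
IL7R: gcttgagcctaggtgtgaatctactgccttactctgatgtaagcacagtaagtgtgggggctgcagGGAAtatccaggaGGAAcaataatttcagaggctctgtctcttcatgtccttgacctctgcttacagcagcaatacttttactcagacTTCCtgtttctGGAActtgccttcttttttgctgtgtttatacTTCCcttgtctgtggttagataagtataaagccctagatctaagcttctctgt
The window of IL21R held none of the capitalised motifs. IL4R and IL21R are neighbouring protein-coding genes on chromosome 16. A match is a description of the letters, not of a bound site.

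Total counts per library were 29569281 to 32612429 with OBF1 shRNA and 29913810 to 32546352 with control shRNA. POU2AF1, the targeted transcript, was at 244, 241 and 241 CPM in OBF1 shRNA libraries, against 512, 516 and 512 CPM in control libraries, a 2.12-fold reduction. CPM here are read counts per 1000000, scaled between libraries by TMM factors, the trimmed mean of M values. All 8 B cell markers examined passed the count filter, and their sum was 4423 to 4479 CPM in OBF1 shRNA libraries and 2672 to 2745 CPM in control libraries. MS4A1 supplied most of that difference, at 2078 CPM in OBF1 shRNA and 702 CPM in control libraries on average. Of the 8, 7 were called higher and 1 lower, against 37.5% and 37.9% of all tested genes. CD79A had a log2 fold change of 0.14 and CD79B one of -0.12 (edgeR adjusted p = 0.000281 and 0.00151). MS4A1, CD79A and CD79B were named after their values were seen. IL7R, IL2RB and IL2RG are also carried by T and NK cells. The 18 markers of those cells summed to between 16.6 and 18.1 CPM in OBF1 shRNA libraries, against 13.9 to 14.2 CPM in control libraries. Among them CD3D, CD2, CD5, GNLY, NCAM1 and GZMB had 0 counts in all 6 libraries, and LCK and NKG7 were the 2 that passed the filter, both called higher. LCK made up most of the sums, at 15.9 ± 0.784 CPM in OBF1 shRNA and 13.6 ± 0.126 CPM in control libraries (SD, n = 3 each, edgeR adjusted p = 0.00332). NKG7 had 24, 24 and 23 counts in OBF1 shRNA libraries, against 1, 7 and 6 in control libraries (edgeR adjusted p = 1.99e-05), and passed the filter through the group in which it was high. PRF1 had 3, 2 and 7 counts in OBF1 shRNA libraries, against 0 in each control library. With library sizes alone, CD79A and LCK were not called (edgeR adjusted p = 0.318 and 0.102). NKG7 and PRF1 were thus higher in the same libraries as IL2RB, IL7R and IL2RG, and their part in those results was not tested. The 15 myeloid markers summed to 2.32 to 2.36 CPM in OBF1 shRNA and 2.30 to 2.50 CPM in control libraries, and the 15 markers of the 293T packaging cells to at most 0.511 CPM in either group. Of 3 myeloid markers tested, ITGAM was called higher (1.96-fold) and LYZ lower (3.81-fold, edgeR adjusted p = 0.00201 and 0.000202), and CSF1R was not called. LYZ passed the filter through the control group, in which it was high. CD33, which was not tested, had 0, 1 and 2 counts in OBF1 shRNA libraries, against 9, 12 and 13 in control libraries. These myeloid genes were named after their values were seen.

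Of the 10 receptor genes, 7 passed the count filter, and 6 of these were called higher in OBF1 shRNA cells and 1 was called lower, at an adjusted p under 0.05 over all genes tested (quasi-likelihood F test in edgeR with Benjamini-Hochberg adjustment). IL2RG, IL21R, IL7R and IL2RB rose by at least 1.5-fold, IL4R and IL10RA rose by less, and IL10RB was slightly lower. Over all 12010 genes tested, 37.5% were called higher and 37.9% lower, and 12.9% were called higher by at least 1.5-fold. The median log2 fold change of the 7 chains was 1.05, and that of all tested genes was -0.01. The groups did not overlap for any of the 7 chains, nor for 76.6% of all tested genes. Since 75.4% of tested genes were called in either direction, a call by itself sets no chain apart. IL2RB passed the filter through the group in which it was high, and the counts and the median of the 7 chains include it. With a filter of 1 CPM in 3 libraries, which removed IL2RB, 5 chains were called higher and 1 lower. In RNA from whole cultures, a change in the share of cells with a transcript and a change in the amount per cell cannot be told apart.

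**Figure D1:**
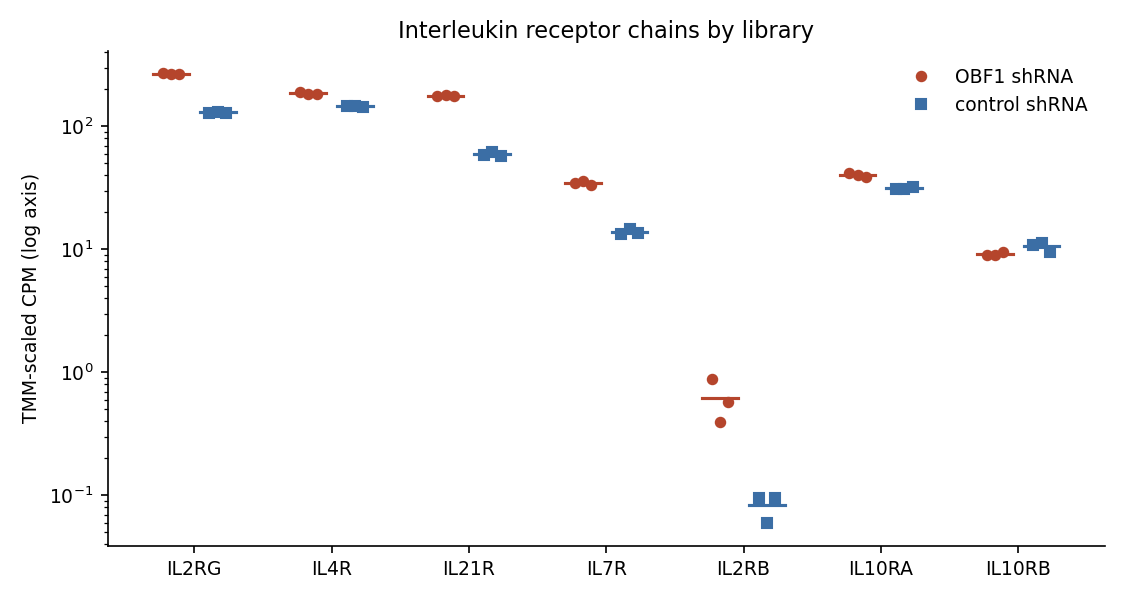
TMM-scaled CPM (log axis) of the 7 chains that passed the count filter, with 3 OBF1 shRNA libraries (circles) left of 3 control shRNA libraries (squares) and a bar at each group's mean. IL2RG, IL21R, IL7R, IL4R, IL10RA and IL2RB lie higher in OBF1 shRNA libraries, IL10RB lies slightly lower, and IL2RB lies under 1 CPM in every library.

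The common gamma chain was the most abundant of the 10 transcripts per length and about doubled on the CPM scale. IL2RG had 271, 268 and 268 CPM in OBF1 shRNA libraries, against 129, 132 and 129 CPM in control libraries. The groups were far apart and the libraries within each group differed by no more than a few CPM. The log2 fold change was 1.05 (SE 0.03, edgeR adjusted p = 7.15e-17), or 2.07-fold. In transcripts per 1000000 (TPM, computed from the deposited counts and gene lengths), IL2RG averaged 446 ± 4.20 in OBF1 shRNA and 246 ± 0.691 in control libraries (SD, n = 3 each). Levels compared between genes depend on the deposited lengths, and whether these match the transcripts expressed was not tested.

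IL21R, the private chain for interleukin-21, was the private chain of appreciable abundance that rose most. It had 176, 179 and 178 CPM in OBF1 shRNA libraries, against 58.5, 62.4 and 57.1 CPM in control libraries. No OBF1 shRNA library came near the control range. The log2 fold change was 1.58 (SE 0.03, edgeR adjusted p = 9.70e-18), or 3.00-fold. IL7R, the private chain for interleukin-7, had 34.5, 36.2 and 33.6 CPM in OBF1 shRNA libraries, against 13.3, 14.6 and 13.7 CPM in control libraries. These groups did not overlap either. Its log2 fold change was 1.33 (SE 0.05, edgeR adjusted p = 1.31e-13), or 2.51-fold.

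IL4R, the private chain for interleukin-4 and the only chain with an upstream octamer among the 9 windows read, rose least of the 4 gamma chain partners among the 10 genes. It had 192, 183 and 185 CPM in OBF1 shRNA libraries, against 147, 147 and 143 CPM in control libraries. The groups did not overlap, and the gap was narrower than for IL21R and IL7R. The log2 fold change was 0.36 (SE 0.03, edgeR adjusted p = 1.74e-09), or 1.28-fold. On the scale of library sizes alone, without a composition factor, which moved the median log2 fold change of all genes by -0.11, it was 0.25.

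IL2RB, the signalling chain of the interleukin-2 and interleukin-15 receptors, was rare in every library. It had 25, 12 and 18 counts in OBF1 shRNA libraries, against 3, 2 and 3 counts in control libraries. All 3 OBF1 shRNA libraries were above all 3 control libraries, and the control libraries were at or under a floor of 3 counts. Over the summed counts, 55 against 8, the ratio of scaled counts was 7.34, with an exact interval of 3.48 to 17.8 (95%) that covers counting error only. The edgeR log2 fold change was 2.82 (SE 0.47, adjusted p = 2.95e-05). In TPM, IL2RB averaged 0.387 ± 0.153 in OBF1 shRNA and 0.0603 ± 0.0157 in control libraries (SD, n = 3 each), far under IL4R, IL21R and IL7R in both groups.

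The private chains were then set against the common gamma chain within each library. Such a ratio of counts per length does not depend on how libraries are scaled, and its difference between groups does not depend on the gene lengths. IL21R was 19.6%, 20.2% and 20.0% of IL2RG in OBF1 shRNA libraries, against 13.6%, 14.2% and 13.3% in control libraries. The log2 ratio was higher by 0.54 (SE 0.03) in OBF1 shRNA libraries, so IL21R gained on IL2RG. IL7R was 4.13%, 4.38% and 4.06% of IL2RG in OBF1 shRNA libraries, against 3.34%, 3.57% and 3.45% in control libraries, a difference of 0.28 (SE 0.04) in the log2 ratio.

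IL4R moved the other way relative to IL2RG, since it rose less than IL2RG. It was 27.7%, 26.7% and 27.0% of IL2RG in OBF1 shRNA libraries, against 44.3%, 43.5% and 43.3% in control libraries. The log2 ratio was lower by 0.69 (difference -0.69, SE 0.02). IL2RB stayed under 0.2% of IL2RG, at 0.123%, 0.0558% and 0.0814% in OBF1 shRNA libraries and 0.0282%, 0.0171% and 0.0280% in control libraries, a difference of 1.79 (SE 0.41) in the log2 ratio. In none of these 4 ratios did the groups overlap. With 3 libraries against 3, the exact two-sided permutation test cannot go below 0.10, which each of the 4 reached; adjusted over the 7 ratios that could be formed, p = 0.117.

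**Figure D2:**
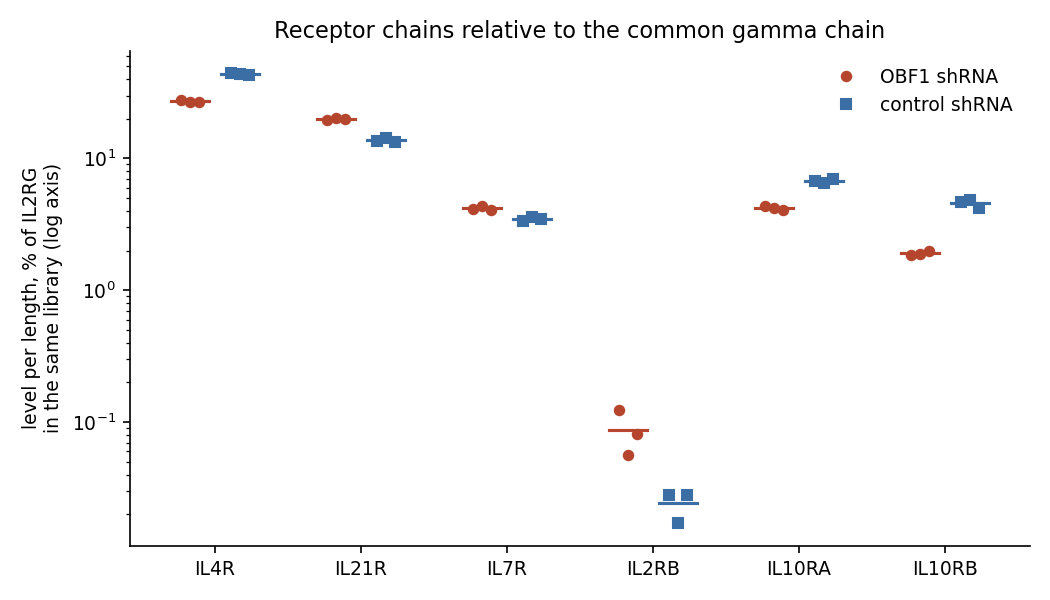
Level per length of 6 chains as a percentage of IL2RG in the same library (log axis), with 3 OBF1 shRNA libraries (circles) left of 3 control shRNA libraries (squares) and a bar at each group's mean. IL21R, IL7R and IL2RB lie higher relative to IL2RG in OBF1 shRNA libraries, and IL4R, IL10RA and IL10RB lie lower.

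IL4R made up less, and IL21R more, of the private chains in OBF1 shRNA libraries than in control libraries. Of the summed level per length of IL4R, IL21R, IL7R and IL2RB, IL4R made up 52.8% ± 0.843 in OBF1 shRNA and 71.7% ± 0.697 in control libraries (SD, n = 3 each). IL21R made up 38.8% ± 0.696 in OBF1 shRNA and 22.6% ± 0.567 in control libraries (SD, n = 3 each). IL7R made up 8.17% ± 0.323 in OBF1 shRNA and 5.67% ± 0.194 in control libraries (SD, n = 3 each). The sum of the 4 private chains was 51.3% ± 0.194 of IL2RG in OBF1 shRNA and 60.9% ± 0.715 in control libraries (SD, n = 3 each). By the deposited lengths, the IL2RG transcript was thus in excess over the 4 together in all 6 libraries, by more in OBF1 shRNA libraries. IL9R, a further private chain that is not among the 10 genes, was left out of these shares; it averaged 0.963 TPM in OBF1 shRNA and 1.20 TPM in control libraries. None of these shares overlapped between groups (exact permutation p = 0.10 for each, the smallest possible). These shares, and the direct ratio that follows, were formed after the values were seen. IL21R was 70.8%, 75.6% and 74.1% of IL4R in OBF1 shRNA libraries, against 30.8%, 32.7% and 30.8% in control libraries.

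**Figure D3:**
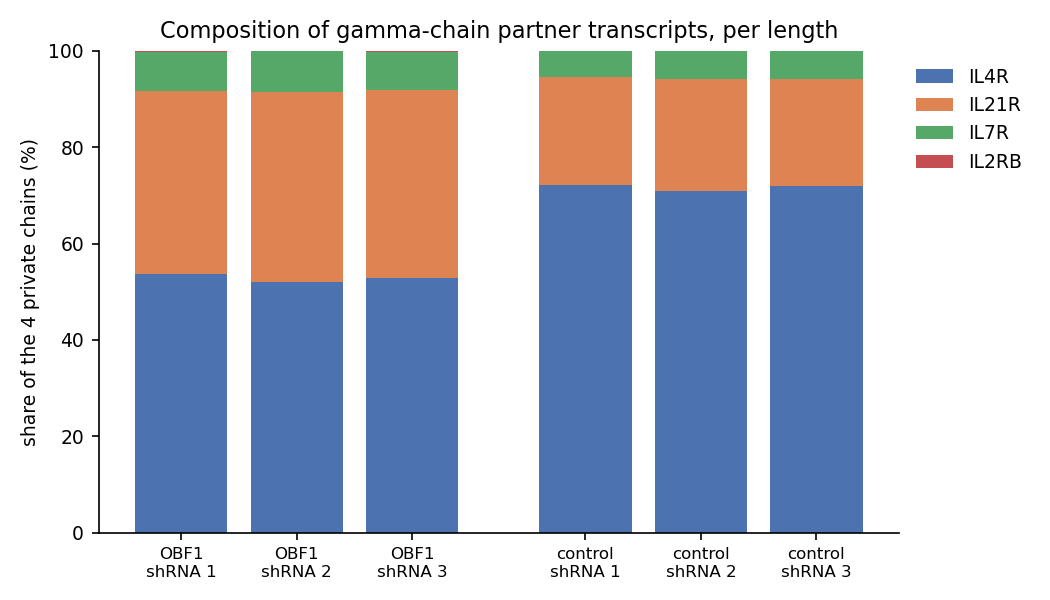
Share of the summed level per length of IL4R, IL21R, IL7R and IL2RB, the 4 private partners of IL2RG among the 10 genes, in each library, with 3 OBF1 shRNA libraries left of 3 control shRNA libraries. IL4R averages 52.8% in OBF1 shRNA and 71.7% in control libraries, IL21R 38.8% and 22.6%, and IL2RB is too small to see.

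The chains of the interleukin-10 receptor moved apart. IL10RA, which binds the ligand, had 42.1, 40.2 and 39.0 CPM in OBF1 shRNA libraries, against 31.2, 30.8 and 32.2 CPM in control libraries. The groups did not overlap, and the log2 fold change was 0.37 (SE 0.04, edgeR adjusted p = 6.21e-07), close in size to that of IL4R. IL10RB, the shared chain, had 8.97, 8.96 and 9.57 CPM in OBF1 shRNA libraries, against 10.9, 11.3 and 9.62 CPM in control libraries. The highest OBF1 shRNA library lay just under the lowest control library. Its log2 fold change was -0.21 (SE 0.08, edgeR adjusted p = 0.0216). DESeq2 did not call it (adjusted p = 0.0772), nor did edgeR without control shRNA replicate 1 (0.0601), control shRNA replicate 2 (0.109), OBF1 shRNA replicate 1 (0.0666) or OBF1 shRNA replicate 2 (0.067). Per length, IL10RA was 234%, 224% and 203% of IL10RB in OBF1 shRNA libraries, against 143%, 135% and 167% in control libraries; the groups did not overlap (exact permutation p = 0.10, the smallest possible). Relative to IL2RG, the log2 ratio differed by -0.68 (SE 0.04) for IL10RA and by -1.26 (SE 0.07) for IL10RB. In the RefSeq table IL10RB overlaps a read-through gene, IFNAR2-IL10RB, and how reads shared between such genes were counted is not given, so its level is uncertain. Antisense genes overlap IL21R, IL2RB and IL6R in that table, and whether strand was used in counting is not given either.

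The other 3 chains were near the limit of detection. IL13RA1, the alternative partner of IL4R, had 3, 4 and 6 counts in OBF1 shRNA libraries, against 0, 1 and 0 in control libraries. Summed, these 13 counts against 1 gave a ratio of 13.9, with an exact interval of 2.08 to 589.9 (95%, counting error only). IL6R, the interleukin-6 receptor, had 2, 2 and 7 counts in OBF1 shRNA libraries, against 1, 2 and 2 in control libraries. Its summed ratio of 2.35 had an interval of 0.752 to 8.62 (95%), so a difference was not detectable at this depth. IL27RA, the interleukin-27 receptor, had 0, 1 and 0 counts in OBF1 shRNA libraries, against 0 in each control library. A floor of 3 counts corresponds to between 0.0893 and 0.106 CPM per library.

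In order of TPM in OBF1 shRNA libraries, IL2RG was followed by IL4R (121 ± 2.60), IL21R (88.9 ± 1.54), IL7R (18.7 ± 0.894), IL10RA (18.7 ± 0.750), IL10RB (8.51 ± 0.277) and IL2RB (SD, n = 3). IL7R and IL10RA did not differ beyond their spread there. In control libraries the order was IL2RG, IL4R (108 ± 1.58), IL21R (33.9 ± 1.17), IL10RA (16.6 ± 0.547), IL10RB (11.2 ± 0.857), IL7R (8.51 ± 0.276) and IL2RB (SD, n = 3), with no overlap between neighbours. IL7R thus stood level with IL10RA in OBF1 shRNA libraries and below IL10RB in control libraries. Among the last 3 chains, neighbours in the order overlapped in both groups.

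Other chains that build receptors with these 10, and their relatives, were mixed. Of 25 further cytokine receptor chains listed, 14 were tested, with a median log2 fold change of 0.27. Of the 14, 7 were called higher and 4 lower, against 37.5% and 37.9% of all tested genes. IL2RA, which adds high affinity for interleukin-2 to IL2RB and IL2RG, had 120, 173 and 162 counts in OBF1 shRNA libraries, against 7, 7 and 8 in control libraries. It averaged 5.02 ± 0.738 CPM in OBF1 shRNA and 0.229 ± 0.0231 CPM in control libraries (SD, n = 3 each, log2 fold change 4.44, edgeR adjusted p = 1.97e-12). Like IL2RB, it passed the filter through the group in which it was high, with control libraries under 10 counts. IL15RA, which presents interleukin-15 to IL2RB and IL2RG, averaged 18.3 ± 0.725 CPM in OBF1 shRNA and 11.6 ± 0.831 CPM in control libraries (SD, n = 3 each, edgeR adjusted p = 4.93e-08). IL9R, the private chain for interleukin-9 and a gene with near-identical copies, averaged 1.94 ± 0.381 CPM in OBF1 shRNA and 2.12 ± 0.361 CPM in control libraries (SD, n = 3 each) and was not called (edgeR adjusted p = 0.525). CRLF2, which joins IL7R to bind TSLP, had a log2 fold change of 0.45 (edgeR adjusted p = 0.00109). IL12RB1, a chain of the receptors for interleukin-12 and interleukin-23, had one of 0.51 (edgeR adjusted p = 2.15e-06).

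IL6ST, the gp130 partner of IL6R and IL27RA, averaged 31.7 ± 1.30 CPM in OBF1 shRNA and 34.2 ± 1.78 CPM in control libraries (SD, n = 3 each). Its call as lower was at the threshold (edgeR adjusted p = 0.0496), and it was lost with DESeq2 (adjusted p = 0.122) and under most alternatives. Both groups therefore had gp130 transcript beside almost none of its 2 partners in the set. IL13RA2, a decoy receptor for interleukin-13, had 0 counts in all 6 libraries. The interferon-γ receptor chains IFNGR1 and IFNGR2 rose by 1.03 and 0.52 on the log2 scale (edgeR adjusted p = 7.68e-15 and 4.12e-10), given as the further chains with the smallest p-values beside IL2RA and IL15RA. Beside IL6ST, the chains called lower were IFNAR2, IFNAR1 and IL11RA, named after their values were seen, with log2 fold changes of -0.35, -0.16 and -0.50 (edgeR adjusted p = 2.20e-05, 0.000404 and 0.0225). The call of IL11RA was lost with DESeq2 (adjusted p = 0.115) and with edgeR without control shRNA replicate 3 (0.0804), OBF1 shRNA replicate 2 (0.0698) or OBF1 shRNA replicate 3 (0.0622). IFNAR2 and IFNAR1 are the chains of the type I interferon receptor, and IFNAR2 is the gene joined to IL10RB in the read-through.

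**Figure D4:**
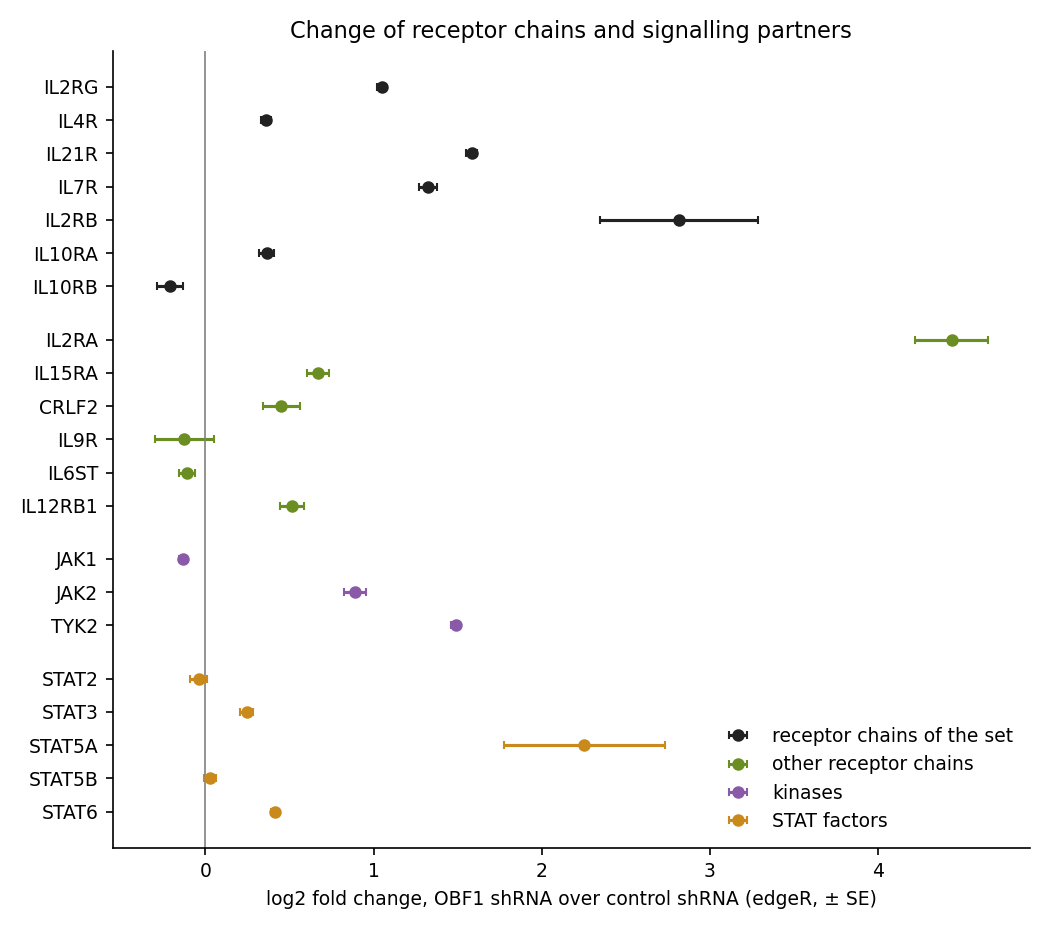
Log2 fold change of OBF1 shRNA over control shRNA (edgeR, bars ± SE over 3 libraries per group) for the 7 tested chains, 6 other receptor chains, 3 JAK-family kinases and 5 STAT factors. IL2RA and IL2RB lie furthest right, TYK2 is the kinase that rose most, and JAK1, IL9R, IL6ST, STAT2 and STAT5B lie near 0.

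Among the kinases and STAT factors, 6 of 9 tested were called higher and 1 lower, against 37.5% and 37.9% of all tested genes. JAK1, which binds the private chains IL4R, IL7R, IL21R and IL2RB, was abundant and averaged 436 ± 4.82 CPM in OBF1 shRNA and 478 ± 9.55 CPM in control libraries (SD, n = 3 each, log2 fold change -0.13, edgeR adjusted p = 9.51e-05). JAK3, the kinase that binds IL2RG, was listed at 0 counts in 6 of 6 libraries. How the table was counted is not given in the sources used here, so this 0 may be no measurement of the transcript, and its reason was not tested. The same limit holds for the other genes with 0 counts in all 6 libraries. TYK2, which binds IL10RB, averaged 307 ± 1.72 CPM in OBF1 shRNA and 109 ± 2.96 CPM in control libraries (SD, n = 3 each, log2 fold change 1.49, edgeR adjusted p = 1.18e-18). JAK2 averaged 16.9 ± 0.785 CPM in OBF1 shRNA and 9.13 ± 0.353 CPM in control libraries (SD, n = 3 each, log2 fold change 0.89, edgeR adjusted p = 1.01e-09).

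STAT6, the factor that interleukin-4 activates, had a log2 fold change of 0.41 (SE 0.02, edgeR adjusted p = 3.04e-11), close to that of IL4R. STAT3, activated through the interleukin-10 and interleukin-21 receptors, had one of 0.24 (edgeR adjusted p = 1.22e-05). On the TPM scale the groups overlapped for STAT3, at 31.2 ± 0.442 in OBF1 shRNA and 30.1 ± 1.13 in control libraries (SD, n = 3 each). STAT5B, activated through IL7R and IL2RB, averaged 92.6 ± 2.14 CPM in OBF1 shRNA and 90.8 ± 3.42 CPM in control libraries (SD, n = 3 each) and was not called (edgeR adjusted p = 0.485). Its close relative STAT5A was rare, at 0.509 ± 0.108 CPM in OBF1 shRNA and 0.101 ± 0.0940 CPM in control libraries (SD, n = 3 each, edgeR adjusted p = 0.000363), and it too passed the filter through the group in which it was high. STAT2 was not called (edgeR adjusted p = 0.491), and STAT4 had 0 counts in all 6 libraries. With library sizes alone, STAT2 and STAT5B were called lower (edgeR adjusted p = 0.0145 and 0.0391).

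Of 16 cytokines listed as ligands of these receptors or their relatives, 4 were tested. All 4 were called higher in OBF1 shRNA libraries, against 37.5% of all tested genes. EBI3, a subunit of interleukin-27, averaged 233 ± 10.9 CPM in OBF1 shRNA and 12.6 ± 1.79 CPM in control libraries (SD, n = 3 each, 18.4-fold, edgeR adjusted p = 3.25e-20). IL27, the gene of the other subunit, was not tested. It had 2, 2 and 3 counts in OBF1 shRNA libraries, against 0, 1 and 0 in control libraries. The interleukin-27 receptor chain IL27RA had 1 count in all. IL10 averaged 3.66 ± 0.244 CPM in OBF1 shRNA and 0.869 ± 0.159 CPM in control libraries (SD, n = 3 each, 4.18-fold, edgeR adjusted p = 2.08e-09), and IL7 averaged 2.67 ± 0.0986 CPM in OBF1 shRNA and 0.967 ± 0.137 CPM in control libraries (SD, n = 3 each, 2.76-fold, edgeR adjusted p = 2.82e-07). CLCF1, a ligand of a receptor that contains gp130, rose 3.41-fold (edgeR adjusted p = 2.68e-12). IL2, IL9 and IL21, ligands of the gamma chain receptors, had 0 counts in all 6 libraries, among 7 ligands that did, and IL4 had at most 3 counts in any library.

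Of 13 tested genes listed as inhibitors of the pathway, 7 were called higher and 3 lower, with a median log2 fold change of 0.09. Whether the pathway itself induced any of them was not tested. For this list and those that follow, the shares over all tested genes were 37.5% called higher and 37.9% called lower. The 4 with the smallest p-values were the phosphatase genes PTPN6 (24.7-fold) and PTPN1 (1.31-fold), PIAS3, an inhibitor of STAT3 (1.53-fold), all higher, and SOCS7, which was 1.71-fold lower. Adjusted p-values from edgeR lay between 1.21e-20 for PTPN6 and 5.36e-10 for PIAS3. CISH, a feedback gene that STAT5 induces, had 0 counts in all 6 libraries. Of 15 tested genes listed as STAT targets, many of which other pathways also induce, 12 were called higher and 3 lower, with a median log2 fold change of 1.77. CCL22 (51.5-fold), LTA (7.18-fold), BCL2 (6.58-fold) and BCL2L1 (3.09-fold) had the smallest p-values, at most 1.12e-18 (edgeR, adjusted). The 3 called lower, named after their values were seen, were PRDM1, a regulator of plasma cell differentiation (9.26-fold lower, edgeR adjusted p = 3.73e-12), and the kinase genes PIM2 (1.34-fold lower) and PIM1 (1.11-fold lower). This list was chosen with earlier results of these data known and its direction is not independent evidence. ADAM17 and ADAM10, proteases that shed IL6R from the cell surface, were 1.64-fold and 1.08-fold lower (edgeR adjusted p = 2.17e-12 and 0.00987), and the call of ADAM10 was lost without OBF1 shRNA replicate 1 (edgeR adjusted p = 0.0553).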

How the data were processed

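Poly(A) RNA libraries, made with a stranded kit per the labels' protocols, were taken from Raji cells in 2 groups of 3, grouped by sample title. The authors deposited raw read counts per gene and a gene length, with 1 column per library; 0 columns were left out. The submitters' processing notes list the builds hg19 and mm9; which aligner, counter, annotation and strand setting were used is not given in the sources used here. Of 23459 rows, 23308 matched a symbol in a RefSeq table of GRCh38.p14.

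The deposited counts were tested in R 4.3.3 with edgeR 4.0.16 (filterByExpr with min.count 10 and min.total.count 15, 12010 genes kept, TMM, quasi-likelihood F test on all 6 libraries, no covariate, Benjamini-Hochberg over all genes, threshold 0.05). The fit was also run on simulated counts with few changed genes and a common dispersion for all genes. That setting differs from these data, in which most tested genes were called, and its outcome is not used here. The standard error is the size of the log2 fold change divided by the square root of F. TPM were computed from counts and deposited lengths, and ratios to IL2RG from counts per length, with an exact two-sided permutation test over libraries. Alternatives were DESeq2 1.42.0, voom in limma 3.58.1, RLE, upper-quartile and no composition factors, 2 other low-count filters, a replicate block, glmTreat against 1.5-fold, leaving out each library and, for ratios, a prior of 0.5 counts.

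Named genes were the 10 chains, fixed partner chains, kinases, STAT factors and sheddases, POU2AF1, and up to 4 genes with the smallest p-values from each list; any other gene was named after its values were seen. Of the genes so chosen, 1 is not reported here. The members and lists were chosen with earlier results of these data known. Chi-square per degree of freedom between libraries of a group was 1.89 to 3.28, above the counting noise for every pair. Intervals and floors cover counting error only.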

Additional observations from a re-analysis of the deposited data

How the results depend on the processing

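No tested chain changed direction under any alternative run. Of 104 alternative log2 fold changes of the 7 tested chains, 96 kept their side of the threshold and 8 lost the call; the cause was not tested. IL4R and IL10RA lost theirs when the fold was tested against 1.5 with glmTreat, and the other 6 were of IL10RB. The chains called lower numbered 0 with DESeq2 and 0 with glmTreat, and 0 to 1 with a library left out. The chains called higher numbered 4 with glmTreat, 5 with the filter of 1 CPM, which removed IL2RB, and 7 without a low-count filter, which added IL13RA1 (log2 fold change 3.37, edgeR adjusted p = 0.00634). With a library left out, the log2 fold change of IL2RB ranged from 2.49 to 3.06 and that of IL21R from 1.56 to 1.63. The differences in log2 ratio to IL2RG kept their sign in 52 of 56 recomputations. Most of these outcomes were fixed in advance. Where the groups did not overlap, leaving out a library could not change the sign, and the replicate block returns the same difference. The other 4 recomputations were of IL6R. Its difference of -0.02 ranged from -0.59 to 0.29 with a library left out and rests on at most 7 counts per library.

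All genes called numbered 9058, 1967 with glmTreat and 8632 to 8974 with a library left out. Other receptor chains called higher were 2 with glmTreat; those called lower were 2 with DESeq2, 0 with glmTreat and 2 to 4 with a library left out. Kinases and STAT factors called higher were 3 with glmTreat, and called lower 3 with library sizes alone and 0 with glmTreat. Listed inhibitors called higher were 1 with glmTreat, and called lower 6 with library sizes alone and 1 with glmTreat. STAT targets called lower were 1 with glmTreat. Sheddases called lower were 1 with glmTreat and 1 to 2 with a library left out. The replicate block gave 8759 called genes and changed no call of the 7 chains. Same-numbered libraries of both groups did not deviate together (correlations of 0.03, -0.17 and -0.11). The largest correlation across groups was 0.20, between OBF1 shRNA replicate 3 and control shRNA replicate 2. With so few libraries, these correlations cannot tell whether any libraries shared a batch. Depth limits IL13RA1, IL6R and IL27RA, which had at most 7 counts in any library.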
